A study of Mus musculus with 12 samples.

Results

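Transcripts of 10 mouse genes of the lysosomal protease system were followed in CD8 T cells sorted by flow cytometry. The genes were the cathepsins Ctsb, Ctsc, Ctsd, Ctsh, Ctsl, Ctss and Ctsz, the related protease legumain (Lgmn), and cystatins C (Cst3) and B (Cstb), which inhibit such proteases. They were taken by name from a table of 23937 genes, and the set had been chosen by measured levels, namely the scaled expression of these genes in the same 12 libraries. Their values and differences are therefore given as a description. How many of them passed a threshold is stated beside the share of all genes that did, and these counts support nothing. All 10 were among the 22352 genes that passed the filter on low values, which kept a gene that reached 1 CPM (its reads per 1e+06 reads of a scaled library size) in 3 or more libraries.

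The study sequenced 12 libraries in 4 groups of 3. The groups were CD8 T cells from mouse brain 30 days after a stroke (day 30), from mouse brain 3 days after a stroke (day 3), from the brain of naive mice (naive brain) and from the blood of naive mice (naive blood). All cells were labelled CD8 T cells, and the sources used here do not give strain, age, sex, the way the stroke was made or any pooling of animals. The labels' protocol names spleens as the tissue that was dissociated, while the tissue label of every library reads brain or blood. No label ties the 3 libraries of a group to different mice. The p-values therefore measure only the spread between these libraries, which may be technical.

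Cathepsins are proteases that work in the acid interior of lysosomes and endosomes. They are made as inactive precursors, sorted to the lysosome, and activated there by cleavage. Cathepsin D is an aspartyl protease and the other cathepsins followed here are cysteine proteases, while legumain cuts after asparagine and helps to process cathepsins. Cathepsin S trims the invariant chain from MHC class II molecules in antigen-presenting cells, and cathepsin C removes a dipeptide from granzymes, which arms them in killer lymphocytes. Cystatin C is a secreted inhibitor of cysteine cathepsins, and cystatin B, also called stefin B, inhibits them in the cytosol, so neither is a resident enzyme of the lysosome. In brain, these transcripts are best known from microglia and infiltrating macrophages, which digest debris after a stroke.

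Promoter sequences were available for 7 of the 10 genes (Cst3, Ctsc, Ctsd, Ctsl, Ctss, Ctsz and Lgmn) in RefSeq windows of 300 bases on GRCm38.p6, which run from 250 bases before to 50 bases after the start of transcription. The windows of 4 genes are printed because they hold the motifs most often tied to lysosomal and myeloid genes or, for Cst3, because it was the most abundant member and held none of them. Capitals mark the E-box CACGTG and the PU.1 site GAGGAAGT, whose reverse complement is ACTTCCTC. Each sequence reads 5′ to 3′ on the strand of its gene.
Ctsd promoter, chr7:142387778-142388077, minus strand: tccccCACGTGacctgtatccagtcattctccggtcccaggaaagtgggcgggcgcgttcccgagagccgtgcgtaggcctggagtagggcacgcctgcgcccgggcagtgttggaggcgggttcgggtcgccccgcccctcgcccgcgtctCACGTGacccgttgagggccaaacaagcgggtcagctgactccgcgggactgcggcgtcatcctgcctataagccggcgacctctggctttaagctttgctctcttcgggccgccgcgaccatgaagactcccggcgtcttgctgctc
Ctsc promoter, chr7:88277835-88278134, plus strand: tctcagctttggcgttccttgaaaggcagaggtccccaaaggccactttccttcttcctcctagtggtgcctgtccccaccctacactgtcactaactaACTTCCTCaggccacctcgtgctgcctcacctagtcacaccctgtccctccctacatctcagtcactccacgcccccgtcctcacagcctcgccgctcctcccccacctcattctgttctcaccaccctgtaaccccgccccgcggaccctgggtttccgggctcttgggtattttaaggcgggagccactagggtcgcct
Ctss promoter, chr3:95526536-95526835, plus strand: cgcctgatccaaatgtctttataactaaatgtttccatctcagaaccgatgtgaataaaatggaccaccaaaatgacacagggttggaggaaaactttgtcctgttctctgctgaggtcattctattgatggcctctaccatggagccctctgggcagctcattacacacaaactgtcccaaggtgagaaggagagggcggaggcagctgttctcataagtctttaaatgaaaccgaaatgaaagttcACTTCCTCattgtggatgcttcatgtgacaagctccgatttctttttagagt
Cst3 promoter, chr2:148875463-148875762, minus strand: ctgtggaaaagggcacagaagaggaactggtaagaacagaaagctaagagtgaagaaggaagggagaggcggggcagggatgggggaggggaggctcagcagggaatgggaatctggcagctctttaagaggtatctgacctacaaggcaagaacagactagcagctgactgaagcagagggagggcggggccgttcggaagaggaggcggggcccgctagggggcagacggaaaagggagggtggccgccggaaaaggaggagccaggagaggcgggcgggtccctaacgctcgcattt

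The Ctsd window held an E-box 245 bases and another 98 bases before the start. The nearer one lay inside TCACGTGA, the palindromic core of the CLEAR element, which is bound by TFEB and related factors and overlaps the E-box by construction. That core was found in 1 of the 7 members with a window (Ctsd), and in 0.974% of 32851 promoter windows. The E-box was found in 3 of 7 (Ctsd, Ctsl and Lgmn), and in 7.15% of all windows. The PU.1 site was found in 2 of 7, and in 3.2% of all windows. Its first base lay 151 bases before the start in Ctsc and 2 bases before it in Ctss, where the match spanned the start. The CCAAT box (CCAAT or ATTGG) was found in 2 of 7 (Ctsz and Lgmn), and in 37.4% of all windows. Lgmn had 2 windows, with the E-box in 1 and the CCAAT box in the other. Members were counted as genes with a match in any window, while the shares count windows, so the 2 are not in the same unit. Both strands were searched. A match is a run of letters and not evidence of binding.

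In the GENCODE annotation of the mouse build mm10, the 10 genes lay on 8 chromosomes. Ctsd (chr7:142375911-142388038, minus strand, 9 exons in its principal transcript) and Ctsc (chr7:88278085-88310888, plus strand, 7 exons) shared chromosome 7, and Cst3 (chr2:148871722-148875692, minus strand, 3 exons) and Ctsz (chr2:174427493-174439039, minus strand, 6 exons) shared chromosome 2. The others were Ctsb (chr14:63122462-63145923, plus strand, 10 exons), Ctsh (chr9:90054152-90076089, plus strand, 12 exons), Ctsl (chr13:64359337-64370890, minus strand, 8 exons), Ctss (chr3:95526786-95556403, plus strand, 8 exons), Lgmn (chr12:102394084-102439813, minus strand, 14 exons) and Cstb (chr10:78425669-78427622, plus strand, 3 exons). Principal transcripts ranged from 603 bases in Cstb to 4743 bases in Ctsb. The spans of Cst3, Cstb, Ctsh and Lgmn overlapped no other gene. Ctsb overlapped Fdft1 (1.35 to 127 CPM over the libraries) and Ctsz overlapped Nelfcd (11.3 to 213 CPM), each on the opposite strand, and no source used here states whether counting used strand. Ctsd overlapped Gm49369, a predicted locus annotated as protein-coding on the same strand as Ctsd. Ctsc, Ctsl and Ctss overlapped only predicted non-coding loci or pseudogenes. None of these loci was analysed here. Reads of overlapping genes cannot be told apart.

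Depth ran from 1104490 to 21014171 reads per library, and the upper limit for a gene without reads, set at 3 reads, corresponded to 0.298 to 1.65 CPM. The deposited CPM are scaled, with columns that sum to between 526580 and 2086823, so a level depends on the scaling as well as on the reads. Summed reads of 1484 odorant, vomeronasal and taste receptor genes, which these cells are not known to use, separated the libraries into 5 with a low receptor background (164 to 873 unscaled CPM) and 7 with a high one (2006 to 7813). The 3 naive brain libraries and replicate 1 of day 3 and of day 30 were low, and the other libraries were high, so naive brain and naive blood cannot be told apart from this split. Reads for all 15 T cell markers in the table, Cd8a and Cd3e among them, were present in every group. So were reads for all 16 microglia markers, among them Tmem119 and P2ry12.

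On a scale that allows genes to be compared (scaled CPM per kilobase of the principal transcript), Cst3 was the highest of the 10 in every group. It averaged 6376 ± 3549 at day 30, 6967 ± 8417 at day 3, 38836 ± 24899 in naive brain and 272 ± 69.2 in naive blood (SD, n = 3 each). Ctss and Ctsd followed in the brain groups. Ctss averaged 1041 ± 508 at day 30, 2009 ± 2309 at day 3 and 2558 ± 1338 in naive brain, and Ctsd averaged 673 ± 956, 1400.0 ± 1706 and 3201 ± 2438 in the same groups. These 2 did not differ beyond the spread between libraries in any brain group. Ctsc was the lowest of the 10 in every brain group, at 72.5 ± 63.9 at day 30, 129 ± 159 at day 3 and 110 ± 8.82 in naive brain. Ctsz was the lowest in naive blood, at 5.05 ± 2.23. In the 3 brain groups the means of the genes between these lay within the spread of their neighbours in the order, as did Cst3 and Ctss at day 3. That spread is between libraries and does not measure the order of genes within a library. Cst3 lay above Ctss in each day 3 library, at 16624, 1185 and 3091 against 4655, 401 and 972 (replicates 1, 2 and 3). In blood, Cstb (112 ± 42.1) lay above Ctsd (43.5 ± 22.2), and Ctsl (11.7 ± 1.53) above Lgmn (5.83 ± 0.999), by more than their spread.

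The endopeptidases cut proteins internally. Ctsd, the main aspartyl protease of lysosomes, stood at 3781, 239.7 and 276 scaled CPM in the day 30 libraries (replicates 1, 2 and 3, in that order here and below), 7167, 919.8 and 847 in the day 3 libraries, 2167, 5854 and 12405 in the naive brain libraries and 57.9, 73.5 and 146 in the naive blood libraries. Replicate 1 was far above the other 2 at both times after stroke, and the 3 brain groups overlapped. Every brain library lay above every blood library.

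Ctsb, a cysteine protease with both endopeptidase and carboxypeptidase activity, stood at 1433, 248 and 487 scaled CPM at day 30, 6267, 747 and 1302 at day 3, 1178, 1973 and 1974 in naive brain, and 29.7, 222 and 18.0 in naive blood. The highest blood library came close to the lowest day 30 library, and the naive brain libraries were within a factor of 1.68 of each other.

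Ctsl, the cysteine protease cathepsin L, stood at 364, 118 and 206 scaled CPM at day 30, 2028, 573 and 477 at day 3, 260.4, 356 and 692 in naive brain, and 26.5, 20.8 and 21.8 in naive blood. Every day 3 library lay above every day 30 library. Naive brain overlapped with both.

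Ctss, the cathepsin of antigen-presenting cells, stood at 2149, 787 and 1295 scaled CPM at day 30, 6307, 543 and 1317 at day 3, 3131, 1843 and 5423 in naive brain, and 341, 62.5 and 83.8 in naive blood. The 3 brain groups overlapped, and the lowest brain library was a day 3 one. Lgmn stood at 464, 84.0 and 147 scaled CPM at day 30, 1275, 230.2 and 179.9 at day 3, 623, 486 and 2190.2 in naive brain, and 12.4, 9.33 and 13.02 in naive blood. All day 30 libraries lay below all naive brain libraries, and the day 3 libraries overlapped with both.

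The exopeptidases trim proteins from an end. Ctsc, the dipeptidyl peptidase that activates granzymes, stood at 357, 48.7 and 136 scaled CPM at day 30, 779, 78.7 and 105 at day 3, 265, 257 and 299 in naive brain, and 45.4, 30.7 and 58.4 in naive blood. The naive brain libraries were within a factor of 1.16 of each other, while the day 3 libraries spanned a factor of 9.9. It was the one member whose day 30 libraries overlapped with naive blood.

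Ctsh, an aminopeptidase, stood at 181, 156 and 196 scaled CPM at day 30, 1562, 377 and 518 at day 3, 226, 799.9 and 900.0 in naive brain, and 4.33, 10.4 and 13.02 in naive blood. The day 30 libraries, within a factor of 1.26 of each other, all lay below the lowest day 3 and the lowest naive brain library. Ctsz, the carboxypeptidase cathepsin Z (also called cathepsin X), stood at 458, 81.7 and 273 scaled CPM at day 30, 2284, 328 and 269.9 at day 3, 446, 1175 and 2523 in naive brain, and 4.87, 6.03 and 10.9 in naive blood. Its brain groups overlapped. The lowest counts of the family were 8 reads for Ctsh and 9 reads for Ctsz, both in blood.

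Of the inhibitors, Cst3 stood at 8461, 2362 and 5626 scaled CPM at day 30, 14296.5, 1019 and 2658 at day 3, 27306, 15693 and 57198.5 in naive brain, and 302, 193 and 206 in naive blood. Every naive brain library lay above every library of both times after stroke. Cstb stood at 253, 132 and 102 scaled CPM at day 30, 1270.2, 166 and 269 at day 3, 198, 146 and 326 in naive brain, and 58.4, 48.3 and 96.4 in naive blood. Its brain groups overlapped, and its distance to blood was the smallest of the 10 for naive brain and day 30, while Ctsc was nearest to blood at day 3.

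Within a group the 10 genes shared their highest library. Replicate 1 was the highest for 10 of 10 at day 3 and for 9 of 10 at day 30 (Ctsh was highest in replicate 3), and replicate 3 was the highest for 10 of 10 in naive brain. In blood the highest library was replicate 3 for 6 genes, replicate 1 for 3 and replicate 2 for Ctsb. Replicate 1 of day 3 and of day 30 were also the low receptor background libraries of their groups, with the highest column sums of their groups.

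**Figure D1:**
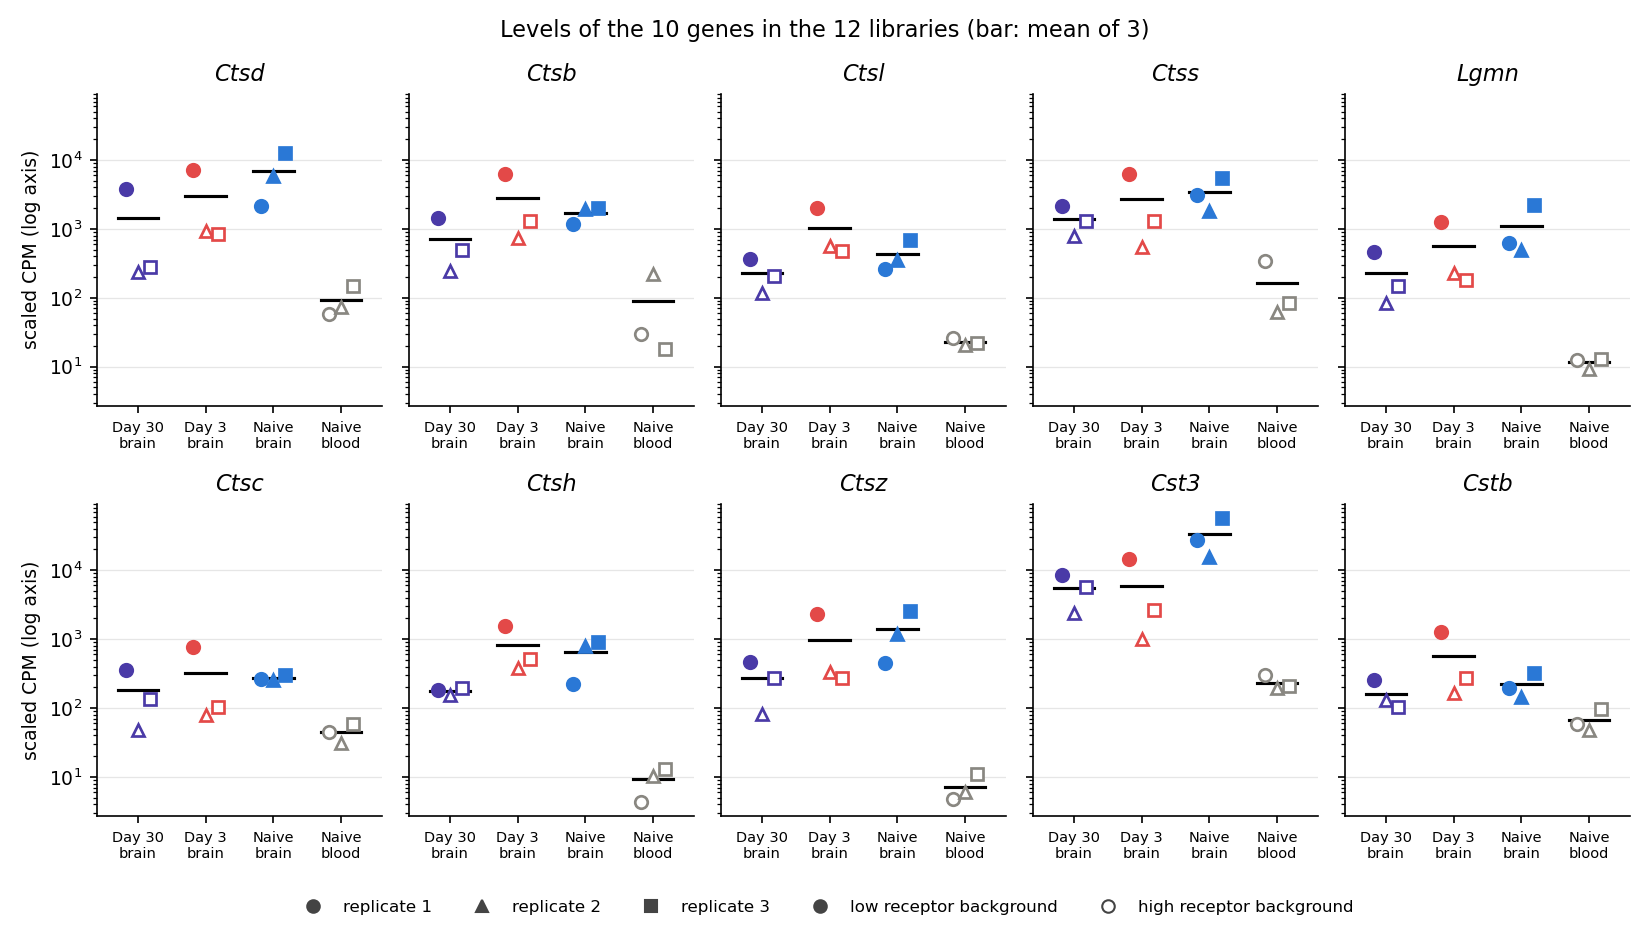
Scaled CPM (vertical log axis) of the 10 genes in the 12 libraries by group (horizontal axis), with replicates by marker shape, filled for low and open for high receptor background, and a bar at the mean of 3. Every gene except Ctsc sits higher in all brain libraries than in all blood libraries, Cst3 is higher in all naive brain libraries than in all libraries after stroke, and Ctsh and Ctsl are lower in all day 30 than in all day 3 libraries.

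The 10 genes together took 1.15%, 0.538% and 0.994% of all reads in the day 30 libraries, 2.68%, 0.946% and 1.17% at day 3, 2.66%, 1.78% and 4.02% in naive brain, and 0.113%, 0.112% and 0.0886% in naive blood. The share of each gene among the reads of the 10 does not depend on how a library was scaled. Cst3 took 47.3% to 64.3% of these reads at day 30, 20.5% to 33.5% at day 3, 54.9% to 76.3% in naive brain and 28.5% to 34.2% in naive blood. Its share was lower in every day 3 library than in every day 30 and every naive brain library.

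The 8 proteases together made up 34.5% to 51.3% of the reads on the 10 genes at day 30, 63.1% to 76.2% at day 3, 23.2% to 44.6% in naive brain and 54.7% to 64.4% in naive blood. Protease reads thus outnumbered inhibitor reads in every day 3 and every blood library and in day 30 replicate 1. These reads are not corrected for transcript length (860 bases in Cst3, 4743 in Ctsb), so they do not give the balance of transcripts. Ctsb took 5.57% to 8.01% at day 30, 14.5% to 16.4% at day 3, 2.35% to 6.90% in naive brain and 2.69% to 32.8% in naive blood. Ctsl took 2.03% to 2.77% at day 30, 4.69% to 11.5% at day 3, 0.727% to 1.24% in naive brain and 3.00% to 3.27% in naive blood. Both genes had a larger share in every day 3 library than in every other brain library, and Ctsl a larger one in every day 30 than in every naive brain library.

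Cstb took 1.17% to 3.10% at day 30, 2.94% to 3.38% at day 3, 0.389% to 0.553% in naive brain and 6.62% to 14.4% in naive blood, so its share was lowest in naive brain and highest in blood without overlap with the other groups. Ctsd took 3.16% to 21.1% at day 30, 10.7% to 18.5% at day 3, 6.05% to 20.5% in naive brain and 6.56% to 21.9% in naive blood, which overlapped throughout. In blood, 1 gene could dominate a library, with Ctss at 38.6% in replicate 1 and Ctsb at 32.8% in replicate 2.

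Among the reads of the 8 proteases alone, which leaves Cst3 out of the total, Ctsl made up 3.96% to 6.83% at day 30, 7.33% to 15.1% at day 3, 2.62% to 3.14% in naive brain and 4.79% to 5.97% in naive blood. The 3 brain groups did not overlap in this share. Ctsb made up 14.1% to 16.2% of protease reads at day 30, 19.7% to 26.0% at day 3, 7.47% to 15.5% in naive brain and 4.91% to 51.0% in naive blood. Every day 3 library was above the day 30 and naive brain libraries in this share too.

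**Figure D2:**
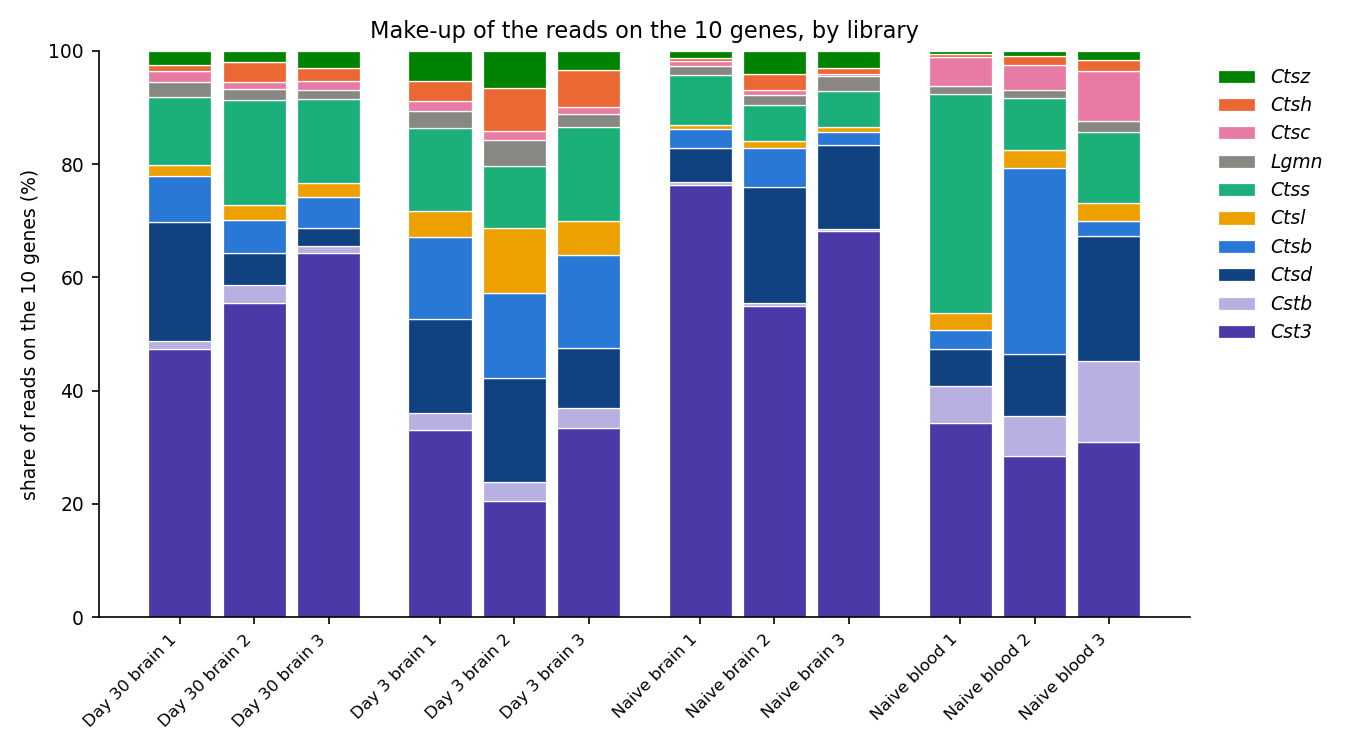
Share of the reads on the 10 genes (percent, vertical axis, stacked to 100) taken by each gene in each of the 12 libraries (horizontal axis). Cst3 takes 20.5% to 33.5% in the day 3 libraries, against 54.9% to 76.3% in naive brain, and the Ctsb and Ctsl blocks are widest at day 3 among the brain libraries.

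Set against blood, naive brain was higher for all 10 genes. Differences in mean log2(CPM + 1), each with its standard error from limma, ranged from 1.69 ± 0.74 for Cstb to 7.12 ± 0.77 for Ctsz, with 6.98 ± 0.67 for Cst3, 6.13 ± 0.76 for Lgmn, 5.96 ± 0.76 for Ctsd, 5.85 ± 0.73 for Ctsh, 5.04 ± 0.75 for Ctsb, 4.69 ± 0.70 for Ctss, 4.07 ± 0.71 for Ctsl and 2.63 ± 0.78 for Ctsc. The median was 5.44, beside -0.37 over all 22352 genes. All 10 had 3 naive brain libraries above the 3 blood libraries, beside 15.6% of all genes, and 9 (all but Cstb) passed limma at an adjusted p under 0.05 as higher, beside 6.61% of all genes. The members were picked with this difference known, so nothing is read from these counts. In bulk samples such as these, fewer cells of a type and less RNA per cell cannot be told apart.

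The size of that difference depended on the scaling. Its median over the 10 was 4.25 with unscaled CPM, 6.71 with median centring, 3.92 with quantile normalization and 2.84 with the receptor background as a term, under which 3 of the 10 passed and Cstb stood at -0.09. For Cstb, Ctsc and Ctsl the unscaled differences were 0.48, 1.42 and 2.87.

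Day 3 brain was also higher than naive blood for all 10 genes, from 2.08 ± 0.78 for Ctsc to 6.22 ± 0.77 for Ctsz and 6.15 ± 0.73 for Ctsh, with a median of 4.64 beside 0.03 over all genes. The libraries did not overlap for any of the 10, beside 7.54% of all genes, and 8 passed the threshold as higher (not Ctsc or Cstb), beside 1.1% of all genes. Day 30 brain was higher than naive blood by a median of 3.44 beside -0.05 over all genes, from 1.20 ± 0.74 for Cstb and 1.60 ± 0.78 for Ctsc to 4.79 ± 0.77 for Ctsz. The libraries did not overlap for 9 (not Ctsc), beside 7.35% of all genes, and 7 passed (not Ctsc, Ctsd or Cstb), beside 0.676% of all genes. Within the high background libraries alone, the medians were 3.69 for day 3 and 2.91 for day 30. The number of the 10 that passed at day 30 was 0 with median centring and 4 with the background term. It was 3 in the high background libraries and 5 without day 30 replicate 1. In these 4 settings 7, 30, 30 and 76 of all 22352 genes passed as higher. At day 3, 5 passed with median centring and 7 in the high background libraries, beside 74 and 87 of all genes. The 3 comparisons with blood share the same 3 blood libraries.

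Between day 3 brain and naive brain the genes went different ways. The differences were -3.10 ± 0.67 for Cst3, -1.60 ± 0.76 for Ctsd, -1.21 ± 0.76 for Lgmn, -0.93 ± 0.70 for Ctss, -0.90 ± 0.77 for Ctsz and -0.55 ± 0.78 for Ctsc, and 0.14 ± 0.75 for Ctsb, 0.30 ± 0.73 for Ctsh, 0.86 ± 0.74 for Cstb and 1.04 ± 0.71 for Ctsl. Their median was -0.72 beside 0.50 over all genes. Cst3 alone had no overlap as lower, beside 8.5% of all genes, and alone passed as lower, beside 0.564% of all genes. As deposited, none passed as higher, beside 0.152% of all genes. In other settings limma passed members as higher, 1 with unscaled CPM and 1 with quantile normalization, beside 115 and 25 of all genes. Cst3 did not pass with a pseudocount of 0.1, without the filter, with median centring, edgeR, DESeq2 or the receptor background as a term, in the low background libraries alone, without day 3 replicate 2 or 3, or without any 1 naive brain library (-3.55 to -2.24 in these 5).

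The direction of most members between day 3 and naive brain depended on the scaling. The number of the 10 above 0 was 4 as deposited, 7 with unscaled CPM, 7 with quantile normalization, 0 with median centring and 9 with the receptor background as a term, and their median was 0.26, 0.52, -1.78 and 1.09 in the last 4. It was 1.28 among low background libraries, which include 1 of day 3 that is assumed to vary like the others, and -1.73 without day 3 replicate 1, the deepest day 3 library and the one with the lowest receptor background. Cst3 was lower at day 3 in all of these, at -2.11, -2.003, -4.16 and -1.44 under the 4 scalings or models, -1.02 in the low background libraries and -4.14 without day 3 replicate 1. Scaling moved the median of all genes as well, to 1.13 with unscaled CPM, 0.02 with quantile normalization, -0.555 with median centring and -0.01 with the background term.

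Day 30 brain was lower than naive brain for all 10 genes as deposited. The differences were -3.10 ± 0.76 for Ctsd, -2.59 ± 0.67 for Cst3, -2.33 ± 0.77 for Ctsz, -2.28 ± 0.76 for Lgmn, -1.62 ± 0.73 for Ctsh, -1.57 ± 0.75 for Ctsb, -1.28 ± 0.70 for Ctss, -1.03 ± 0.78 for Ctsc, -0.95 ± 0.71 for Ctsl and -0.49 ± 0.74 for Cstb, with a median of -1.60 beside 0.19 over all genes. Ctsh, Cst3 and Lgmn had no overlap as lower, beside 6.03% of all genes. None of the 10 passed limma in either direction, beside 0.224% of all genes as lower and 0.0% as higher, and edgeR and DESeq2 also passed 0. In other settings limma passed members as lower, 2 with unscaled CPM, 1 with quantile normalization, 2 with the replicate block, 4 without day 30 replicate 1, 2 without day 3 replicate 2, and 1 without day 3 replicate 1 or 3 or naive blood replicate 2 or 3. In the whole table limma and edgeR called 0 genes higher at day 30, DESeq2 called 168, and 656 were higher at an unadjusted p under 0.05.

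With unscaled CPM and with quantile normalization, Cstb was above 0 between day 30 and naive brain (0.19 and 0.16). With the background term the median was -0.52 and Ctsc, Ctsl, Ctss and Cstb were above 0. Cst3 stayed between -3.43 and -1.22 in the scalings and models, and was -1.78 among low background libraries, which include 1 of day 30. Leaving out day 30 replicate 1 gave -4.39 for Ctsd, whose day 30 level rests mostly on that library.

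Day 30 brain was lower than day 3 brain for 9 of the 10 genes. The differences were -1.98 ± 0.71 for Ctsl, -1.92 ± 0.73 for Ctsh, -1.71 ± 0.75 for Ctsb, -1.49 ± 0.76 for Ctsd, -1.43 ± 0.77 for Ctsz, -1.35 ± 0.74 for Cstb, -1.06 ± 0.76 for Lgmn, -0.48 ± 0.78 for Ctsc and -0.35 ± 0.70 for Ctss, against 0.51 ± 0.67 for Cst3. Their median was -1.39 beside -0.15 over all genes. Ctsh and Ctsl had no overlap as lower, beside 5.65% of all genes. None of the 10 passed limma in either direction, beside 0.139% of all genes as lower and 0.116% as higher. As lower, edgeR passed 0 of the 10, DESeq2 passed 2 and limma passed 4 on unscaled CPM, 2 with quantile normalization and 1 with the background term.

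The direction of that median did not depend on the scaling, at -1.69 with unscaled CPM, -1.18 with median centring, -1.86 with quantile normalization and -1.67 with the background term. It was -1.84 between the low background libraries (1 against 1) and -0.93 within the high background libraries. Cst3, the exception, was above 0 in each of these except between the low background libraries (-0.76), but it was below 0 with edgeR (-0.11), with DESeq2 (-0.14) and without day 3 replicate 2 (-0.35). Ctss turned to 0.26 within the high background libraries. Without day 3 replicate 1 the median shrank to -0.47, and Ctss (0.62) and Ctsc (0.55) were then above 0 like Cst3 (1.55).

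**Figure D3:**
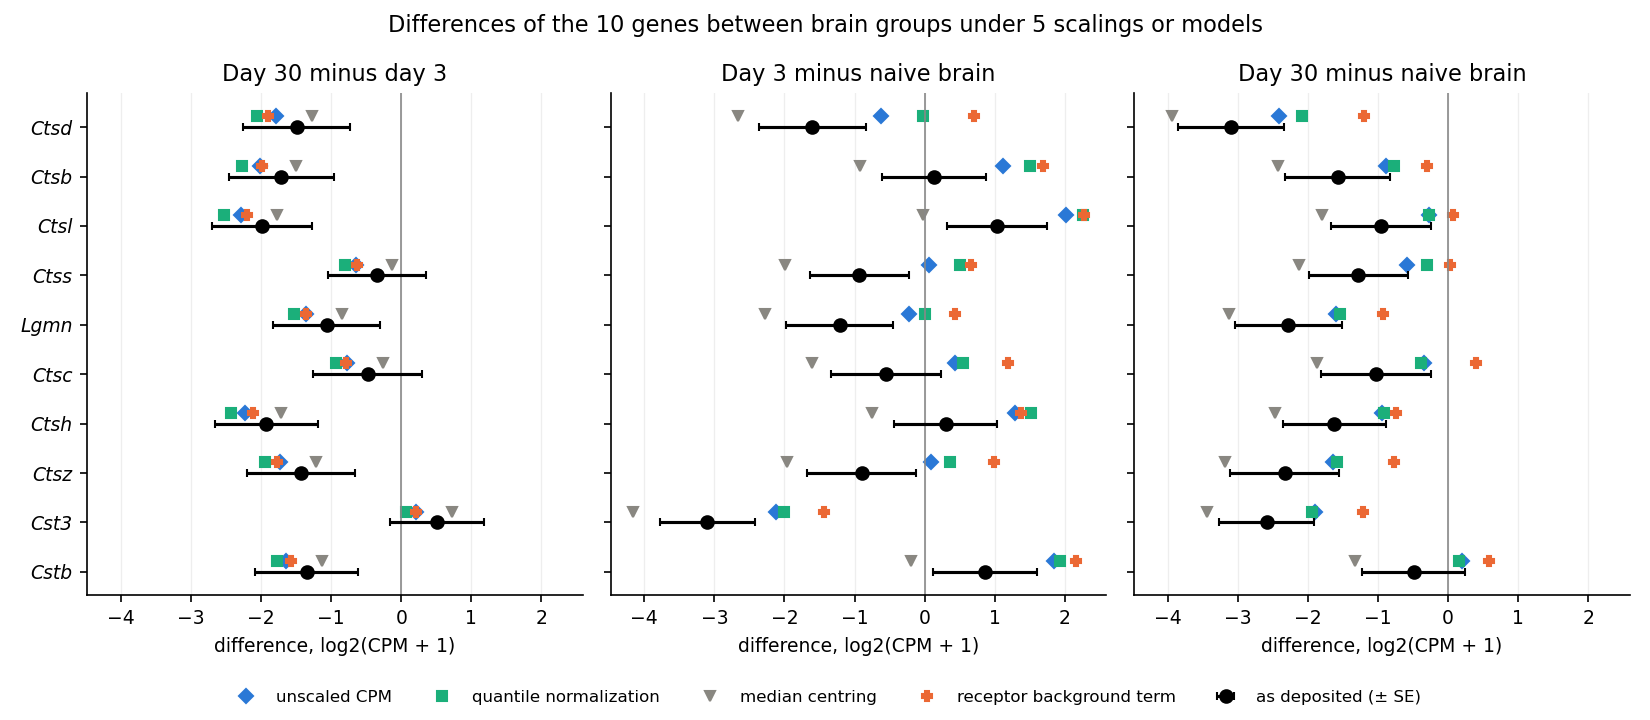
Difference in mean log2(CPM + 1) (horizontal axis) of the 10 genes (vertical axis) for day 30 minus day 3, day 3 minus naive brain and day 30 minus naive brain, as deposited with its standard error (circles) and under 4 other scalings or models. Points for day 30 minus day 3 keep to 1 side of 0 for every gene, with Cst3 alone above 0, while for day 3 minus naive brain Cst3 alone is well below 0 under all 5.

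Microglia markers were lowest in blood, like the 10 genes, and had their highest share in naive brain replicate 3, as the 10 genes did. Microglia markers summed to 0.227% to 0.689% of reads at day 30, 0.439% to 1.68% at day 3, 1.24% to 2.4996% in naive brain and 0.0228% to 0.0675% in naive blood. All 16 rose in naive brain over naive blood (limma, adjusted p under 0.05), beside 6.61% of all genes. Against naive brain 5 of 16 fell at day 30, beside 0.224% of all genes, and 2 of 16 fell at day 3, beside 0.564%. Between day 30 and day 3, 0 of 16 passed, beside 0.139% of all genes as lower and 0.116% as higher. Monocyte and macrophage markers summed to 0.312% to 0.490% at day 30 and 0.486% to 1.10% at day 3. They summed to 0.298% to 0.386% in naive brain and 0.0751% to 0.206% in naive blood. Of these 14 markers 2 rose at day 3 against naive brain, beside 0.152% of all genes. Their median difference was 2.002 at day 3 and 0.17 at day 30 against naive brain, while the medians of the 10 genes in those comparisons were -0.72 and -1.60. None of the 16 or of the 14 was at 0 in all 3 libraries of a group.

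T cell markers summed to 0.536% to 1.33% of reads at day 30, 0.0866% to 0.271% at day 3, 0.717% to 0.923% in naive brain and 0.413% to 0.561% in naive blood. At day 3, 13 of 15 fell against naive brain, beside 0.564% of all genes. A rise at day 30 against day 3 was called for 3 of 15, beside 0.116% of all genes. The summed microglia markers exceeded the summed T cell markers in every day 3 and every naive brain library, and in no day 30 or blood library. Erythroid markers summed to 0.00038% to 0.00122% of reads at day 30, 0.0127% to 0.238% at day 3, 0.000476% to 0.00614% in naive brain and 0.0257% to 0.734% in naive blood. Of these 7 markers 4 rose at day 3 against naive brain, beside 0.152% of all genes. At day 30 against day 3, 4 fell, beside 0.139%, and in naive brain against naive blood 4 fell, beside 0.975%. The part of RNA from other cells in the levels of the 10 genes was not tested.

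**Figure D4:**
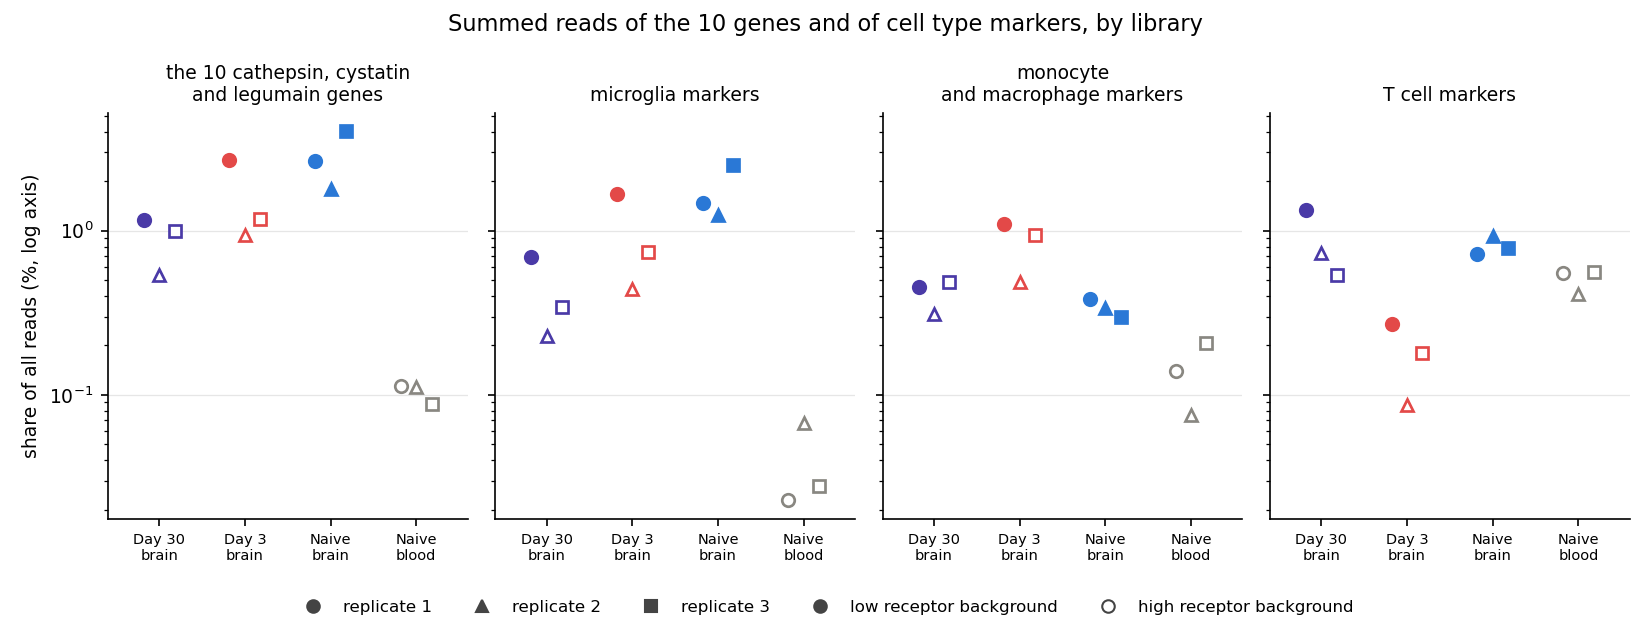
Share of all reads (percent, log axis) taken by the 10 genes and by microglia, monocyte and macrophage, and T cell markers in each library, by group (horizontal axis), with replicates by marker shape, filled for low and open for high receptor background. The 10 genes and the microglia markers are lowest in blood and highest in naive brain replicate 3, and the T cell markers are lowest at day 3.

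Other lysosomal genes show how far the pattern was shared. Of 100 such genes in 7 lists (other cathepsins, other cathepsin inhibitors, other peptidases, sugar and lipid hydrolases, membrane proteins, the vacuolar proton pump and enzyme sorting), 99 were tested. In naive brain over naive blood 35 rose and 2 fell, beside 6.61% and 0.975% of all genes, with a median of 1.95. The 37 calls became 17 with quantile normalization, 23 with unscaled CPM and 20 without naive brain replicate 3, and leaving out 1 library gave 20 to 44. The lists differed in their counts. In that comparison 12 of 32 sugar and lipid hydrolases, 9 of 17 membrane proteins, 4 of 6 other peptidases, 3 of 8 sorting genes, 3 of 17 pump subunits and 2 of 7 other cathepsins rose.

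Genes with large differences were Cd63, a tetraspanin of lysosomal membranes (6.58 ± 0.91, adjusted p 3e-07), Ctsa, the serine carboxypeptidase that protects lysosomal sialidase (5.99 ± 0.79, adjusted p 1.09e-07), and Grn, progranulin (5.72 ± 0.72, adjusted p 3.07e-08), all by limma. Ctsa averaged 942 ± 556 scaled CPM in naive brain and 18.4 ± 20.7 in naive blood (SD, n = 3 each). Of the 12 other inhibitors tested, Serpinb6b and Cst7 rose and Serpinb1a (-4.63 ± 1.16, adjusted p 0.00598) and Cst6 (-3.73 ± 1.10, adjusted p 0.0230) fell. The Cst7 call held in 11 of 22 alternatives and was lost with edgeR, DESeq2, without any 1 naive brain library (2.48 to 2.57) and without naive blood replicate 2 (1.73). That of Cst6 held in 14 of 22 and was lost with edgeR, without naive brain replicate 2 (-3.30) or 3 (-3.59) and without naive blood replicate 1 (-3.20). Serpinb6b lost its call without naive brain replicate 3 (3.11). With the receptor background as a term, 2 of the 99 passed in this comparison.

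Against naive blood, 13 of 99 rose at day 3, beside 1.1% of all genes, and 5 of 99 rose at day 30 (among them Cd63, Lamp2, Ctsa and Ctsw), beside 0.676% of all genes. None fell, beside 0.085% of all genes at day 3 and 0.0358% at day 30. Cd63 differed by 7.09 ± 0.91 at day 3 (adjusted p 9.49e-08) and by 4.31 ± 0.91 at day 30 (adjusted p 0.00463, limma). Leaving out 1 library gave 6 (without day 3 replicate 1) to 16 at day 3. At day 30 it gave 2 without day 30 replicate 1, 11 without day 3 replicate 1 and 10 without day 3 replicate 2. With median centring 3 of the 99 passed at day 3 and 0 at day 30. In the high background libraries 7 passed at day 3 and 0 at day 30. The day 30 call of Cd63 held in 18 of 23 alternatives and was lost without day 30 replicate 1 (3.55).

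Among brain groups the number of other lysosomal genes that passed depended on the setting. At day 3 against naive brain 3 of 99 fell, beside 0.564% of all genes, and none rose, beside 0.152%. In that comparison 8 passed without day 3 replicate 1 and 6 with the replicate block. None passed without day 3 replicate 2 or naive brain replicate 2, and 1 passed without day 3 replicate 3 or naive brain replicate 1 or 3. Ctsw, the cathepsin of killer lymphocytes, had 378, 52.8 and 98.0 scaled CPM at day 3, against 1001, 2137 and 2578 in naive brain, a difference of -3.81 ± 0.76 (limma, adjusted p 0.00379). Cst7, cystatin F, an inhibitor of cathepsin C in cytotoxic lymphocytes, had 165, 10.01 and 64.3 scaled CPM at day 3, against 423, 479 and 434 in naive brain (-3.18 ± 0.78, adjusted p 0.0280, limma). Acp5, tartrate-resistant acid phosphatase, named after its values were seen, fell by 3.17 ± 0.82 (adjusted p 0.0416, limma).

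These calls moved with the setting. Ctsw passed in 17 of 23 alternatives and lost its call without day 3 replicate 2 (-3.19) and without naive brain replicate 2 (-3.67). Cst7 and Acp5 each passed in 10 of 23 and lost their calls without day 3 replicate 2 or 3 or any 1 naive brain library, at -3.38 to -2.10 for Cst7 and -3.40 to -2.58 for Acp5. None of the 3 passed with the receptor background as a term (-1.89, -1.65 and -1.06). T cell markers fell in the same comparison, as given above.

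At day 30 against naive brain 1 of 99 fell, beside 0.224% of all genes. In that comparison 17 passed without day 30 replicate 1, 4 with unscaled CPM, 4 with the replicate block and 2 without day 3 replicate 2. Grn had 222, 76.7 and 97.5 scaled CPM at day 30, against 606, 807 and 2109 in naive brain, a difference of -3.08 ± 0.72 (limma, adjusted p 0.0425). It passed in 11 of 23 alternatives and lost its call without any 1 of 5 libraries, at -2.77 and -2.94 without day 30 replicates 2 and 3 and at -3.45, -3.24 and -2.55 without naive brain replicates 1, 2 and 3. At day 30 against day 3 1 of 99 rose, beside 0.116% of all genes. It was Ctla2a, which encodes an inhibitor of cathepsin L-like proteases and was named after its values were seen, with 541, 524 and 616 scaled CPM at day 30, against 179, 15.01 and 127 at day 3 (2.96 ± 0.72, adjusted p 0.0475, limma). It passed in 8 of 24 alternatives. It lost its call without any 1 of 9 libraries, namely each day 30 library (2.89 to 3.01), day 3 replicates 2 (1.88) and 3 (3.38), naive brain replicates 1 and 2, and naive blood replicates 1 and 3 (2.96 in these 4). With the replicate number as a block over all 12 libraries, 5 of the 99 passed. The count was 14 with unscaled CPM, 7 with quantile normalization, 6 with DESeq2, 4 without day 30 replicate 1, 3 without day 3 replicate 1 and 2 without naive brain replicate 3 or naive blood replicate 2.

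Among transcription regulators of lysosomal and myeloid genes, Spi1, which encodes PU.1, fell at day 30 against naive brain. It had 47.6, 5.51 and 0.903 scaled CPM at day 30, 307, 45.5 and 31.1 at day 3, 54.6, 198 and 538 in naive brain and 2.16, 25.2 and 0.352 in naive blood. The difference at day 30 was -4.42 ± 1.05 (limma, adjusted p 0.0431), which passed in 9 of 23 alternatives and lost its call without day 30 replicate 2 (-4.24) or 3 (-3.35), without day 3 replicate 1 (-4.42) and without any 1 naive brain library (-5.28, -4.36 and -3.64). In naive brain over naive blood 4 of the 7 regulators rose (limma), beside 6.61% of all genes. Among them were Spi1 (5.23 ± 1.05, adjusted p 0.000429), Cebpb (4.15 ± 0.80, adjusted p 0.000252) and Tfe3, and the other was Cebpa. The calls of Spi1 and Cebpb each held in 21 of 22 alternatives, that of Tfe3 in 14 and that of Cebpa in 8. Tfe3 lost its call without naive brain replicate 3 (2.38) and without any 1 naive blood library (3.04 to 3.14). Tfeb, which binds the CLEAR element, did not pass in any comparison and had 9.29, 13.3 and 1.81 scaled CPM at day 30, 15.8, 13.2 and 34.8 at day 3, 16.3, 36.2 and 84.8 in naive brain and 7.03, 2.74 and 10.2 in naive blood.

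MHC class II presentation, in which cathepsin S acts, and cytotoxic granules, in which cathepsin C acts, were listed apart. Of 11 genes for MHC class II chains and peptide loading, 5 fell at day 30 against day 3, beside 0.139% of all genes. They were H2-Aa, H2-Ab1, H2-Eb1 and, named after their values were seen, H2-DMb1 and Ifi30. H2-Ab1 had 38.3, 76.7 and 145 scaled CPM at day 30, against 9191, 715 and 562 at day 3 (-4.34 ± 0.76, limma, adjusted p 0.000942), and it passed in 21 of 24 alternatives. The groups did not overlap. Without day 3 replicate 1, H2-Ab1 still passed (-3.05), while H2-Aa (-2.79), H2-Eb1 (-2.98), H2-DMb1 (-3.16) and Ifi30 (-2.996) did not. H2-Aa also lost its call without day 30 replicate 1 (-2.72), H2-DMb1 without day 30 replicate 2 or 3, and Ifi30 without day 30 replicate 2 or day 3 replicate 2. At day 30 against naive brain 3 of the 11 fell (H2-DMb1, H2-Ab1 and H2-Eb1), beside 0.224% of all genes. These calls held in 12, 14 and 10 of 23 alternatives and not with edgeR. H2-Eb1 lost its call without day 30 replicate 2 or 3 or any 1 naive brain library (-4.17 to -3.43), H2-DMb1 without day 30 replicate 2 or 3 or naive brain replicate 2 or 3 (-4.60 to -3.91), and H2-Ab1 without day 30 replicate 2 or naive brain replicate 2 or 3 (-4.16 to -3.90). At day 3 against naive brain none of the 11 passed limma in either direction. Ctss, which acts on the same pathway, differed by -0.35 ± 0.70 between day 30 and day 3.

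Of 8 granule genes whose products are processed by cathepsins or stored with them, Nkg7, a membrane protein of cytotoxic granules, fell at day 3 against naive brain (-3.90 ± 0.69, limma, adjusted p 0.000992) and rose at day 30 against day 3 (3.54 ± 0.69, adjusted p 0.00372). It had 9196, 3742 and 4149.9 scaled CPM at day 30, 2393, 91.0 and 412 at day 3, 6775, 5945 and 7547 in naive brain and 1748, 852 and 1646 in naive blood. The naive brain and day 30 libraries all lay above the day 3 libraries. Both calls were lost with median centring, edgeR and in the low background libraries (-1.49 and 1.94), the first also with the background term and the second also without the filter. DESeq2 gave Nkg7 no adjusted p. In the same comparisons 13 of 15 T cell markers fell and 3 of 15 rose. Granzymes B and K rose in naive brain over naive blood, by 3.81 ± 0.92 (adjusted p 0.0040) and 6.16 ± 0.86 (adjusted p 3.34e-07), while Ctsc differed by 2.63 ± 0.78 in that comparison. The granzyme B call was lost with quantile normalization, edgeR, DESeq2 and the background term, and without naive blood replicate 1 (2.14, adjusted p 0.141). Their differences between brain groups did not pass.

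**Figure D5:**
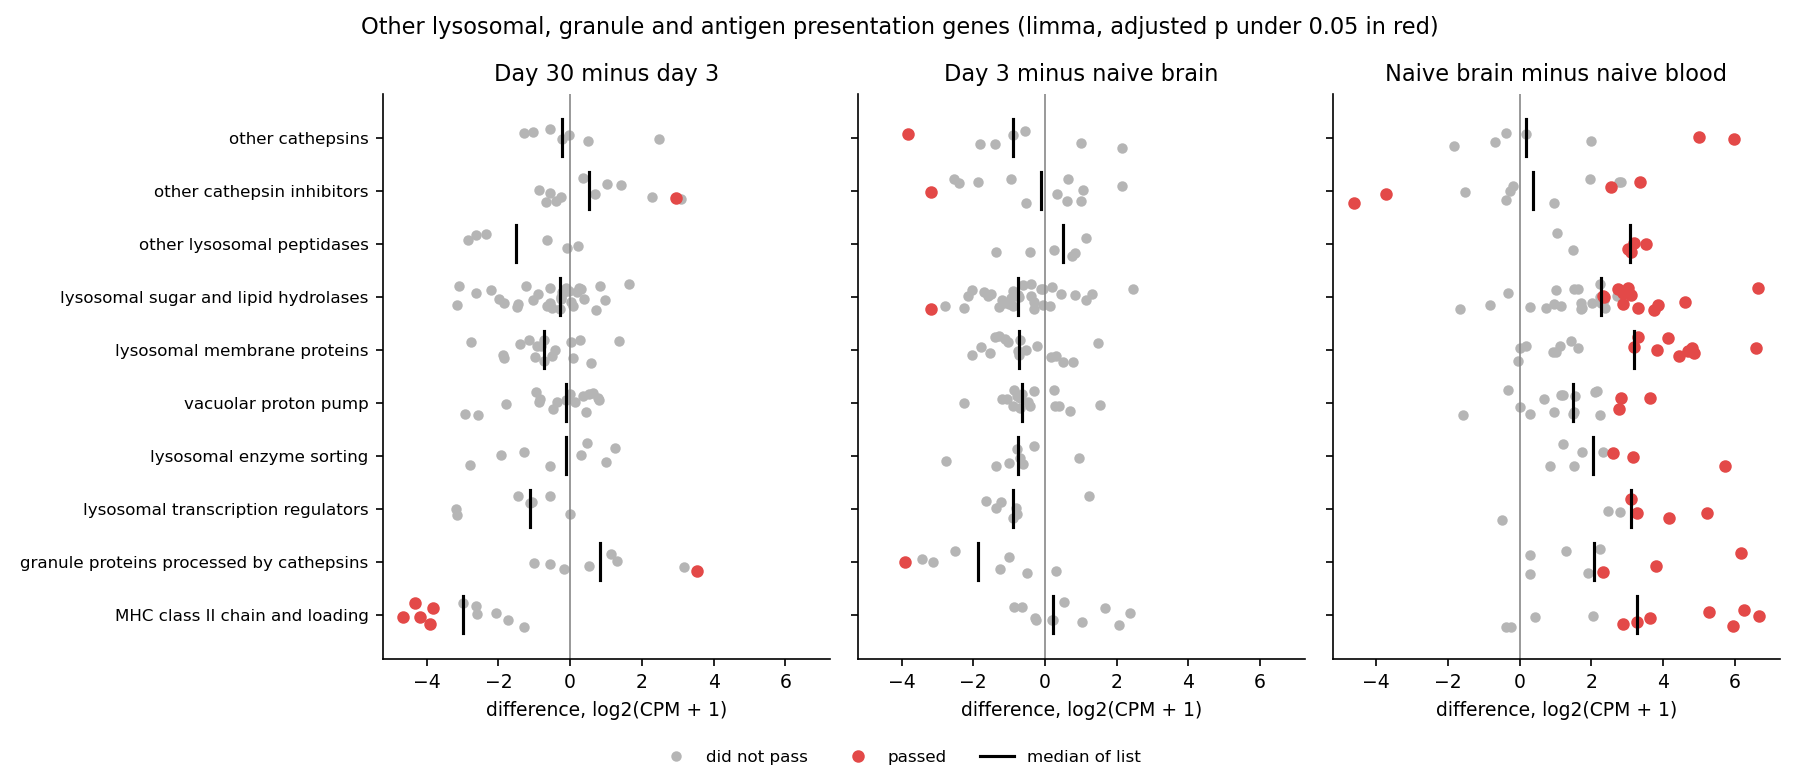
Difference in mean log2(CPM + 1) (horizontal axis) of each gene in 10 lists (vertical axis) for day 30 minus day 3, day 3 minus naive brain and naive brain minus naive blood, red where limma passed at an adjusted p under 0.05, with a black line at the median of the list. MHC class II genes hold 5 of the passing genes in the first panel, and 35 lysosomal genes of the upper 7 lists pass as higher in the last.

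The gene with the profile most like the mean of the 10 was Hexa, which encodes a lysosomal sugar hydrolase subunit. Likeness was the mean absolute difference of log2(CPM + 1) profiles over the 12 libraries, each centred on its own mean, among 10774 genes with a mean of at least 10 CPM. Hexa lay at 0.33, and other near genes were Fth1 (0.40), Socs3 (0.45), Apobec1 (0.46), Cd68 (0.47), Fosb (0.47), Cd83 (0.49) and Tmem176a (0.51). All profiles share the depth, the scaling and the background of the same libraries.

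The closest gene outside the family was Apobec1 for Ctsb, Emp3 for Ctsc, Zfp36 for Ctsd, Alox5ap for Ctsh, Fcer1g for Ctsl, Ccl4 for Ctss, Unc93b1 for Ctsz, Egr1 for Cst3, Manf for Cstb and Trem2 for Lgmn, at distances from 0.32 (Emp3) to 0.62 (Unc93b1). Measured against the mean of the other 9, Lgmn (0.44), Ctsl (0.54) and Ctss (0.60) were nearest, and Cstb (1.12) and Cst3 (1.001) were farthest. Both inhibitors lay farther from the other members than any of the 8 proteases. The margin was small, since Ctsc (0.95), the farthest protease, lay close to Cst3 (1.001), and it was not tested.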

How the data were processed

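CD8 T cells were sorted into lysis buffer and libraries were made with a SMART-Seq v4 ultra-low input kit, per the labels' protocols. That kit adds no molecular identifiers, so floors cover counting error only. FastQC 0.11.2, STAR 2.5.3a, featureCounts of Subread, edgeR and the mm10 build are named in the submitters' processing notes. The deposited signal, in 1 table of 23937 genes, is CPM, that is, read counts of a gene per 1e+06 reads of a library size that was rescaled. Within each column 100% of values were whole multiples of 1 read to within 1e-06 reads, so reads were recovered. The design had foreseen plain CPM, and the test for normalized values was kept.

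In R 4.3.3, limma 3.58.1 (empirical Bayes with a trend) was fitted to log2(CPM + 1) over all 12 libraries together, for the 22352 genes that reached 1 CPM in 3 or more of them. The other 1585 were not tested. For each of 6 comparisons, 2-sided p-values were given a Benjamini-Hochberg adjustment over all tested genes (threshold 0.05), and the fit was tested on simulated data. The members and the gene lists were chosen with earlier results of these data known. Named genes were the 10 members, up to 4 genes from each list (those called with the largest difference, otherwise the most abundant), all genes of lists with 7 or fewer, and the genes of closest profile. Some of these are not reported here.

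Alternatives were pseudocounts of 0.1 and 5, no filter, unscaled CPM, median centring, quantile normalization, edgeR 4.0.16 and DESeq2 1.42.0 on recovered reads, the receptor background as a term, the replicate number as a block, and each library left out. The split by receptor background was added after seeing the data. Same-numbered day 30 and day 3 libraries deviated together from their group means (correlations 0.530, 0.284 and 0.165). However, no label ties same-numbered libraries of different groups, and replicate 1 was the low receptor background library in both groups. Whether these libraries were paired was not tested, and the block used the replicate number in all 4 groups. At most 3.61% of genes had equal counts in any 2 libraries. Promoters came from RefSeq (GRCm38.p6) and gene models from GENCODE vM21, the same assembly as mm10.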

Additional observations from a re-analysis of the deposited data

Results flagged for a closer look

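Genes of MHC class II presentation differed between day 30 and day 3 in their distance to naive brain, by the test of the difference itself (limma, adjusted p under 0.05). Day 30 minus day 3 was -3.91 for H2-Aa, -4.34 for H2-Ab1, -4.20 for H2-Eb1, -4.65 for H2-DMb1 and -3.82 for Ifi30. Day 3 replicate 1 held the highest value of all 12 libraries for each of these 5, and without it the differences were -2.79, -3.05, -2.98, -3.16 and -2.996, of which only that of H2-Ab1 still passed. Nkg7 differed the other way, by 3.54, and so did Ctla2a, by 2.96.

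Among the 10 genes, Ctsl stood out because, as deposited, every day 3 library lay above and every day 30 library below the mean log2 level of naive brain. This depended on the scaling or model. Day 3 minus naive brain was 1.04 as deposited and -0.02 with median centring. Day 30 minus naive brain was -0.95 as deposited and 0.07 with the background term. The difference of day 30 minus day 3 was -1.98. It is shown for where the libraries lay and not for a test, and it did not pass limma's threshold.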

How the results depend on the processing

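Medians of the 10 genes kept their direction in every alternative except day 3 minus naive brain (-0.72), which was -1.78 with median centring, 0.52 with quantile normalization, 1.09 with the receptor background as a term, 1.28 in the low background libraries alone and -1.73 to -0.030 with 1 library left out. It was also above 0 with unscaled CPM (0.26) and DESeq2 (0.18). Day 30 minus naive brain (-1.60) was -0.52 with the background term, -0.53 in the low background libraries and -2.04 to -1.26 with 1 library left out. Day 30 minus day 3 ranged from -1.90 to -0.47 with 1 library left out. Naive brain minus naive blood (5.44) was 4.25 unscaled, 6.71 with median centring, 3.92 with quantile normalization, 2.84 with the background term and 5.14 to 5.92 with 1 library left out, and it could not be fitted within low or high background libraries. Day 3 and day 30 minus naive blood ranged from 3.69 to 5.16 and from 2.91 to 3.91 with 1 library left out.

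Counts of all genes called moved more. For day 3 minus naive brain (160) they were 44 with a pseudocount of 0.1, 45 without the filter, 5 with median centring, 56 with quantile normalization, 17 with edgeR, 1000 with DESeq2, 1 with the background term, 314 with the replicate block, 0 in low background libraries and 22 to 666 with 1 library left out. For day 30 minus naive brain (50) the same settings gave 2, 1, 2, 12, 6, 240, 0, 121, 0 and 1 to 532, and unscaled CPM gave 119. For day 30 minus day 3 (57), pseudocount 0.1 gave 31, no filter 24, unscaled CPM 265, median centring 8, quantile normalization 134, edgeR 35, DESeq2 167, the replicate block 115, low background libraries 0, high background libraries 15 and leaving out 1 library 26 to 115. For naive brain minus naive blood (1696), median centring gave 2894, quantile normalization 704, DESeq2 3842, the background term 18 and leaving out 1 library 768 to 2124. For day 3 minus naive blood (264), unscaled CPM gave 573, median centring 75, quantile normalization 601, DESeq2 575, high background libraries 135 and leaving out 1 library 139 to 391. For day 30 minus naive blood (159), a pseudocount of 5 gave 94, no filter 92, unscaled CPM 276, median centring 11, DESeq2 313, the background term 35, the replicate block 296, high background libraries 35 and leaving out 1 library 87 to 213. With the background term, naive brain minus naive blood turned to -0.17 for Nkg7 and to -0.51 for H2-DMb1. Over single genes, 81 of 1380 values of the 10 members moved by more than the spread between libraries. Of 6762 values of other named genes, 373 no longer passed, among them 3 of Nkg7 for which DESeq2 gave no adjusted p. The 6762 include comparisons that had not passed as deposited and so had no call to lose. The share of calls that were lost is therefore higher than 373 of 6762. The cause was not tested. No label pairs same-numbered libraries of different groups, so all block values rest on a number alone. At 3 libraries a group and as few as 8 reads for a member in blood, small differences were not detectable.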
